A study of Mus musculus with 24 samples.

Results

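The 46 genes described here encode lysosomal enzymes, lysosomal membrane and sterol proteins, subunits of the proton pump that acidifies the lysosome, and the transcription factors of the MiT/TFE family. They were taken by symbol from a table of 54532 genes, and each symbol matched 1 row of it. The list held 9 proteases and peptidases, 9 glycosidases, 7 genes of lipid hydrolysis, lipid hydrolase activation and sterol transport, 7 genes of membrane proteins, channels and progranulin, 5 subunits of the membrane-embedded V0 sector of the pump, 6 subunits of its cytosolic V1 sector and the 3 factors Tfeb, Tfe3 and Mitf. Lysosomal hydrolases work at acid pH, which the vacuolar H+-ATPase (V-ATPase) sets by coupling ATP hydrolysis in V1 to proton transport through V0. Macrophages and dendritic cells both use lysosomes to degrade what they take up, and dendritic cells also use them to prepare antigen. TFEB, TFE3 and MITF bind short E-box motifs in the promoters of many lysosomal genes, and STING, the adaptor activated by DMXAA, is itself sorted to lysosomes for degradation after activation.

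RNA was sequenced from bone marrow-derived macrophages (BMDMs, differentiated with L929 supernatant) and from bone marrow cultured to dendritic cells in GM-CSF and IL-4 (BMDCs) of C57BL/6N mice given tamoxifen. The WT label stands for Tmem173fl/fl mice and the CRE label for Tmem173fl/fl mice that also carried Lyz2-Cre ert2, a tamoxifen-inducible Cre driven by a myeloid promoter, so that both labels share the floxed alleles of Tmem173 (the gene of STING) and the tamoxifen. Cells of each label were left without agonist (control) or given DMXAA, a mouse STING agonist, which the series text lists at 40 µM and the methods of the study in mass units; the time of treatment is not given in the sources used here, and the methods give the age of mice at tamoxifen injection but none for the marrow donors of these cultures. This gave 8 groups of 3 libraries, 24 in all, with 15657347 to 18912887 counted reads each. Nothing in the labels says that libraries of a group came from separate mice or cultures, so p-values measure only the spread between these libraries.

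Some libraries stood apart from their labels. In the 4 BMDM libraries numbered 3 the summed level of 11 macrophage markers was 19.02 to 32.8 FPKM (read fragments scaled to gene length and library size), against 5720 to 13273 in the other 8 BMDM libraries; 7 pan-leukocyte markers summed to 0.661 to 6.93 against 1171 to 1862, and 10 fibroblast markers to 1339 to 2055 against 5.62 to 76.9. These 4 libraries are therefore described apart, and all tests on BMDMs used the 2 other libraries of each group. Both BMDM WT libraries numbered 2 had fibroblast marker sums of 65.3 and 76.9 FPKM, where the 6 other BMDM libraries used had at most 8.83. Both BMDC CRE libraries numbered 2 had Lyz2 at 927 and 1040 FPKM, where the other 10 BMDC libraries had at least 4031, and neutrophil marker sums of 611.5 and 381.4 FPKM. A list of 10 dendritic cell markers summed to 3280 to 8029 FPKM in BMDCs and to 79.4 to 190.6 FPKM in the 8 BMDM libraries. Tmem173 was at 28.8 to 55.3 FPKM in BMDCs labelled WT and at 19.7 to 36.9 in those labelled CRE. In BMDMs it was at 14.7 and 9.90 FPKM in WT control, 31.9 and 22.8 in WT DMXAA, 10.4 and 8.76 in CRE control and 9.12 and 10.1 in CRE DMXAA. The deleted exons are not given in the sources used here, so these gene-level values do not show how far the gene was deleted.

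The members were highly transcribed. All 46 were at 1 FPKM or more in each of the 20 libraries outside BMDM number 3 and passed the filter on low values in every fit. They took 4.15% to 5.33% of all counted reads in BMDCs and 6.14% to 8.83% in BMDMs numbered 1 and 2. Psap, the precursor of the saposins that activate lysosomal lipid hydrolases, and Ctsd, the aspartic protease cathepsin D, led every group except BMDM WT DMXAA, where Psap was followed by Ctsb. In BMDC WT control, Psap averaged 4575 FPKM and Ctsd 1905 FPKM, and in BMDM WT control Ctsd averaged 3437 FPKM and Psap 3042 FPKM. The lowest means belonged to Tfeb, Mcoln1 and Manba, with Tfeb at 3.55 FPKM in BMDC WT DMXAA and Manba at 5.99 FPKM in BMDM WT DMXAA. Atp6v0c, the proton-carrying ring subunit, has a near-identical copy in the table, Atp6v0c-ps2, which was at 6.11 to 16.8 FPKM in those 20 libraries and at 179 to 188.7 FPKM in the 4 set apart, where Atp6v0c itself was at 0.519 to 1.01 FPKM. How reads were shared between these 2 is not given in the sources used here, so values of Atp6v0c are uncertain.

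**Figure D1:**
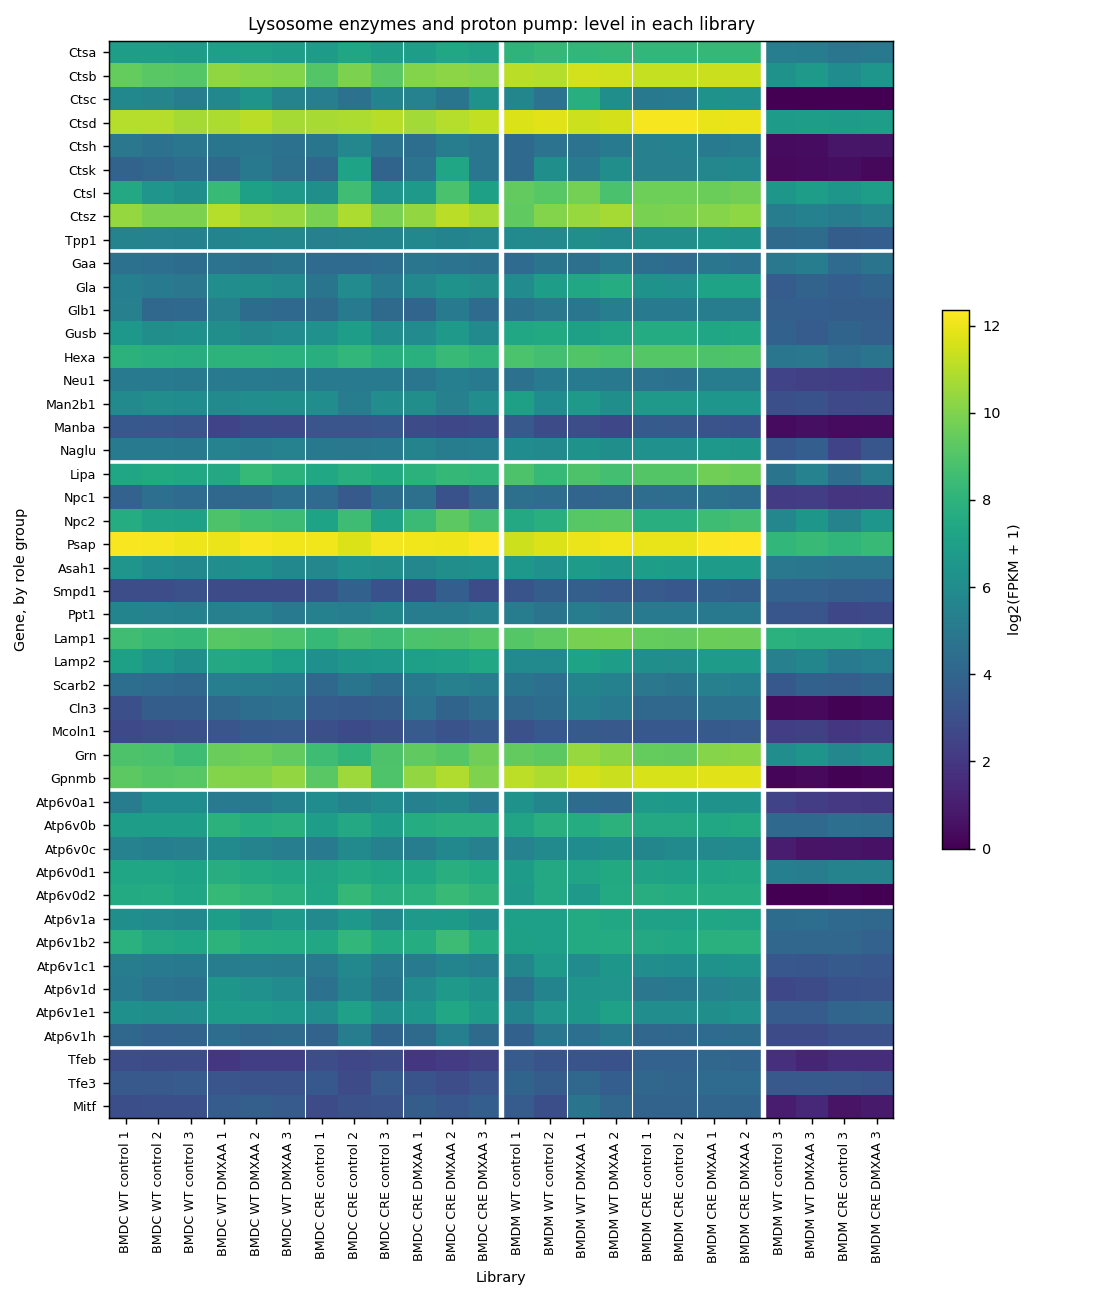
Level of the 46 members (rows, by role group) in the 24 libraries (columns), as log2(FPKM + 1) on the colour scale. Thick vertical lines part BMDCs, BMDMs numbered 1 and 2, and the 4 BMDM libraries numbered 3, in which 7 members were at 1 FPKM or less in all 4.

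Promoters of the members were read because several members changed together under DMXAA and MiT/TFE factors bind known motifs. The RefSeq table (GRCm38.p6) held a promoter for 38 of the 46 members, of 250 bases before the start site and 50 after it. These 300 bases were searched on both strands for CACGTG, for TCACGTGA, which contains CACGTG, and for TCATGTGA. Of the 38, 13 (34.2%) held CACGTG, against 8.09% of all 27025 genes in that table. TCACGTGA was found in 7 members (18.4%) against 1.12% of genes, and TCATGTGA in 5 (13.2%) against 1.15%. Either motif of 8 bases stood in 11 members (28.9%) and in 2.24% of genes. Of 21 members that passed the test in a WT response to DMXAA in either cell type, 18 had a promoter in the table, and 6 of these 18 held a motif of 8 bases in this window, beside 11 of 38 for all members searched. For the 4 of these with the largest changes, the 250 bases before the start are shown 5′ to 3′ on the strand of the gene, with the motif in capitals. Cln3 (chr7:126583237-126583486, minus strand) has it 122 bases before the start, and Mcoln1 (chr8:3500269-3500518, plus strand) 46 bases before it. Grn (chr11:102430257-102430506, plus strand) has TCACATGA, the other strand of TCATGTGA, 211 bases before the start. Gla (chrX:134601006-134601255, minus strand) has 3 motifs, 228, 211 and 195 bases before it. In all 4, the gene span of the deposited table reaches further upstream than the RefSeq start and overlaps the window.
Cln3: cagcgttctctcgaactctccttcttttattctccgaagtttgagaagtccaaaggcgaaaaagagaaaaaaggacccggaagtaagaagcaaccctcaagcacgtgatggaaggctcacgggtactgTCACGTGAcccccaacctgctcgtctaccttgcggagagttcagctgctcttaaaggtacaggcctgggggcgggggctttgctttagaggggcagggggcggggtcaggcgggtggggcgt
Gla: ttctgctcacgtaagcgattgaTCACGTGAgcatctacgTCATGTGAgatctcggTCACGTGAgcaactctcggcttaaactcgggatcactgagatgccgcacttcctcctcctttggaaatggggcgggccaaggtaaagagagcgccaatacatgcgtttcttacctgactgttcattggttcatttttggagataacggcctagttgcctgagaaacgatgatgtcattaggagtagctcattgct
Grn: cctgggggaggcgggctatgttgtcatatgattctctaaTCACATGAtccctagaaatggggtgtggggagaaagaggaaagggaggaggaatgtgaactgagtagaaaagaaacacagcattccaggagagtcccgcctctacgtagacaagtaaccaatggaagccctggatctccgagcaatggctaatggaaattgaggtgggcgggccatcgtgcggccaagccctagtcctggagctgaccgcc
Mcoln1: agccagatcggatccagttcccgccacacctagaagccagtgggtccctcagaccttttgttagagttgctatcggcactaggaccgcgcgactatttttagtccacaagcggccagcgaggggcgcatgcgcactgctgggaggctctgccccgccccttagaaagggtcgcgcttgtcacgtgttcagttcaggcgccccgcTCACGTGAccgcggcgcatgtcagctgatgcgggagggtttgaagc
A match is a string of letters in this window and was not measured as a bound site. Tfeb, Tfe3 and Mitf were themselves at 2.87 to 26.4 FPKM in the 20 libraries.

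The response to DMXAA in BMDCs asks which lysosomal genes move when the agonist is given. In BMDCs labelled WT, 12 of the 46 members rose (26.1%) and 2 fell (4.35%) at an adjusted p under 0.05, in a background where 17% of 12126 genes tested rose and 15.2% fell (edgeR quasi-likelihood test, Benjamini-Hochberg over all genes tested). In BMDCs labelled CRE, 9 rose (19.6%) and 2 fell (4.35%), against 14% and 11.4% of genes. In this fit the share of members that rose was above the background in both labels, and the share that fell was below it. In CRE the rise did not hold in every setting. Fitted on the 6 CRE libraries alone, 2 members rose and 1 fell, where 15.3% of genes were called in either direction. The median log2 change over the 46 was 0.29 in WT and 0.24 in CRE, beside 0.01 and -0.01 over all genes tested, and 32 of 46 were positive in each. The labels do not say what the library numbers mark. In BMDCs they were taken to pair control and DMXAA libraries within a label, because these correlated in the same data (0.327 to 0.669). With a term for that number the calls came to 27 in WT (22 higher, 5 lower, where 48.7% of genes were called) and to 23 in CRE (21 higher, 2 lower, where 42.7% of genes were called). Adjusted p-values with this pairing term, here and below, rest on that choice. All values here are relative to the bulk of the transcriptome: scaled by library totals alone, the median of all genes shifted by -0.35 in WT and -0.34 in CRE on the log2 scale, and the members then counted 5 higher and 7 lower in WT and 2 higher and 5 lower in CRE. That scaling called 5089 of the 12126 genes in WT and 4487 in CRE, in either direction. In bulk samples, fewer cells of a type and less RNA per cell cannot be told apart.

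The genes of membrane proteins, channels and progranulin moved together in BMDCs. Of 7, 6 rose in WT and 5 in CRE, none fell, and all 7 were positive in both labels under each of 3 scalings, with medians of 0.75 and 0.70. Scaled by library totals alone, 1 of the 7 was called in each label, and the medians were 0.39 and 0.36. Cln3, a lysosomal membrane protein whose loss causes Batten disease, was at 7.23, 11.4 and 11.4 FPKM in WT control and at 16.7, 21.4 and 23.8 in WT DMXAA. It was at 10.97, 10.3 and 11.6 in CRE control and at 24.9, 14.7 and 21.1 in CRE DMXAA. In both labels every DMXAA library was above every control library, and the log2 change was 1.02 ± 0.24 (SE, adjusted p = 0.00723, n = 3 against 3) in WT and 0.86 ± 0.24 (adjusted p = 0.0208) in CRE by edgeR. Cln3 overlaps Apobr on the other strand, which was at 2.69 to 53.3 FPKM, and use of strand in counting is not given in the sources used here. Ctsa, Ctsb, Ctsz, Hexa, Manba, Npc1, Ppt1, Lamp1, Grn, Atp6v1b2 and Atp6v1e1 likewise overlap a gene on the other strand that reached 1 FPKM in a library, so that reads from the shared stretch cannot be told apart. The gene over Manba, the pseudogene Oaz2-ps, was at 0.367 to 4.57 FPKM with at most 60 reads, and that over Lamp1, Grtp1, was at 0.175 to 3.04 FPKM.

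Grn, the gene of progranulin, which is cut into granulins in the lysosome, was at 471, 442 and 366 FPKM in WT control and at 731, 795 and 662 in WT DMXAA. The CRE libraries were at 372, 269 and 473 in control and at 653, 542 and 823 in DMXAA. The groups did not overlap in either label, with log2 changes of 0.75 ± 0.23 and 0.83 ± 0.23 (SE; adjusted p = 0.0249 and 0.0184, edgeR). Scarb2, the receptor that carries glucocerebrosidase to lysosomes, rose by 0.86 in WT (adjusted p = 0.00324, edgeR) and by 0.76 in CRE (adjusted p = 0.00859). Mcoln1, the gene of the calcium release channel TRPML1, was low, at 5.51 to 7.04 FPKM in the 6 control libraries and 7.96 to 10.8 in the 6 DMXAA libraries, and rose by 0.60 and 0.54. Lamp2, a main glycoprotein of the lysosomal membrane, rose by 0.66 in WT (adjusted p = 0.0473), where WT control 1 at 131 FPKM lay above WT DMXAA 3 at 125, and by 0.70 in CRE (adjusted p = 0.0464). Its partner Lamp1 was at 376, 335 and 303 FPKM in WT control and at 565, 523 and 467 in WT DMXAA, a rise of 0.59 ± 0.15 (SE, adjusted p = 0.0123). In CRE, Lamp1 differed by 0.45, with an adjusted p of 0.0536 by edgeR and of 0.00926 with the pairing term.

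In BMDC WT, Gpnmb, a glycoprotein of late endosomes and lysosomes in macrophages, had the largest difference of these 7 after Cln3 and also the largest error. It was at 597, 523 and 575 FPKM in WT control and at 1066, 1031 and 1324 in WT DMXAA, so that the groups did not overlap. Its log2 difference was 0.99 ± 0.38 (SE) with an adjusted p of 0.0667 by edgeR, and of 0.000716 with the pairing term. In CRE control, library 2 was at 1519 FPKM beside 584 and 502, and in CRE DMXAA it was at 1887 beside 1315 and 1012, so the groups overlapped (difference 0.67, adjusted p = 0.229, with the pairing term 0.00282).

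**Figure D2:**
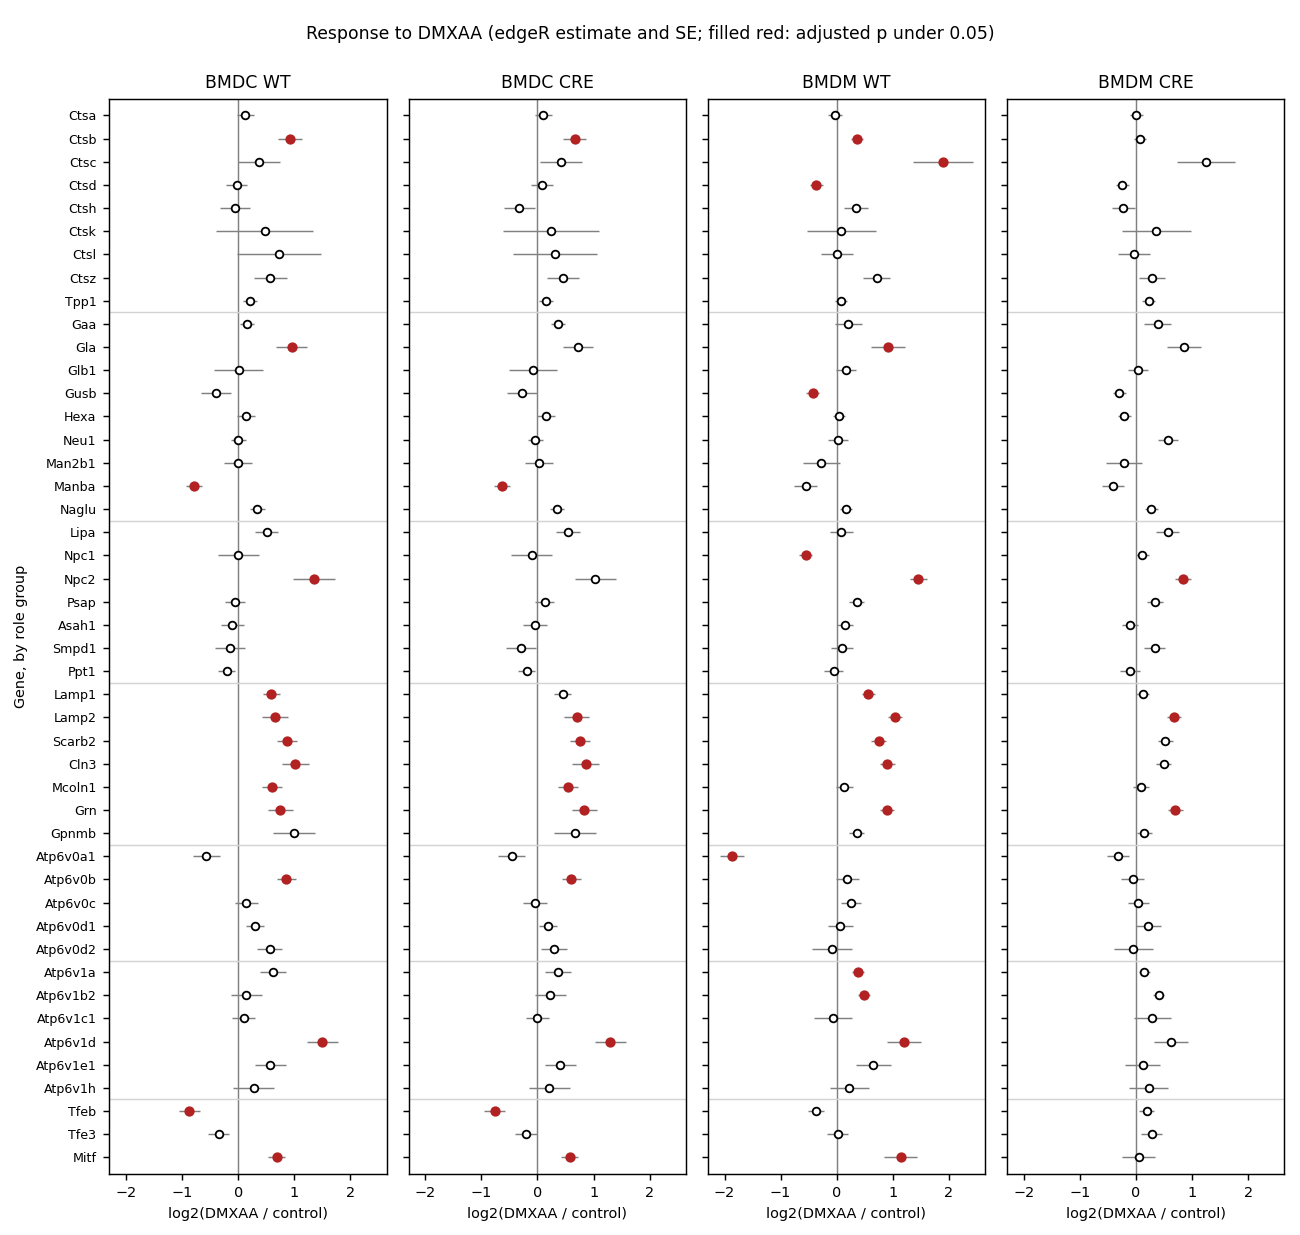
Log2 change under DMXAA of each member (rows, by role group) in BMDC WT, BMDC CRE, BMDM WT and BMDM CRE, with SE as bars; filled red points passed an adjusted p under 0.05 in edgeR. The rows from Lamp1 to Gpnmb lie right of 0 in all 4 panels.

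Of the proton pump, the V1 subunit gene Atp6v1d (chr12:78840725-78861638, minus strand), whose product is part of the central rotor, had the largest change of all 46 members in BMDCs. It was at 31.9, 24.7 and 23.3 FPKM in WT control and at 92.5, 76.5 and 60.5 in WT DMXAA. In CRE it was at 23.5, 46.4 and 26.8 in control and at 61.5, 101 and 79.5 in DMXAA. Every DMXAA library lay above every control library, and the log2 change was 1.496 ± 0.28 in WT (SE, adjusted p = 0.00172, edgeR) and 1.30 ± 0.27 in CRE (adjusted p = 0.00509). The other 5 V1 members did not pass the test in either label. Of the V0 members, Atp6v0b rose by 0.86 in WT (adjusted p = 0.00255, edgeR) and by 0.61 in CRE (adjusted p = 0.0209). It was at 117 to 119 FPKM in WT control and at 198 to 242 in WT DMXAA. Atp6v0d1 and Atp6v0d2 encode the broadly expressed and the form best known from osteoclasts of the same subunit. Atp6v0d1 differed by 0.30 in WT (adjusted p = 0.180 by edgeR, 0.0361 with the pairing term) and by 0.18 in CRE (adjusted p = 0.459). Atp6v0d2 differed by 0.56 in WT (adjusted p = 0.0855 by edgeR, 0.00282 with the pairing term) and by 0.29 in CRE (adjusted p = 0.413, with the pairing term 0.0444). A list of 9 osteoclast-type markers, with 7 at 1 FPKM or more in each BMDC library, summed to 157.5 to 202.2 FPKM in WT control and to 77.6 to 120.1 in WT DMXAA. In CRE it summed to 166.8 to 209.6 in control, to 75.4 and 93.4 in CRE DMXAA 1 and 3 and to 196 in CRE DMXAA 2. The listed markers did not move alike. In BMDC WT, Ocstamp was at 62.1, 46.8 and 54.8 FPKM in control and at 16.5, 21.4 and 10.8 in DMXAA. Acp5 was at 43.9, 15.2 and 14.85 in WT control and at 56.65, 19.9 and 19.8 in WT DMXAA. The part of such cells in the values of Atp6v0d2, Ctsk and Tcirg1 was not tested.

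Among the enzymes few members moved. Of 9 proteases, only Ctsb, the cysteine protease cathepsin B, rose in both BMDC labels by edgeR, from 686, 579 and 544 to 1255, 1147 and 1076 FPKM in WT and from 538, 963 and 588 to 1058, 1174 and 1125 in CRE. This was a log2 change of 0.92 ± 0.21 (SE, adjusted p = 0.00672) and of 0.66 (adjusted p = 0.0409). Ctsd differed by -0.03 ± 0.19 in WT and by 0.08 ± 0.19 in CRE (SE). Ctsl, cathepsin L, and Ctsk, the collagen-degrading cathepsin K, were variable between libraries. Ctsk was at 14.3 to 30.7 FPKM in 10 BMDC libraries and at 142.6 and 157.1 in the CRE libraries numbered 2, and its differences were 0.47 and 0.25 with SE of 0.87 and 0.86. Ctsl was at 177, 86.0 and 70.5 FPKM in WT control and at 336, 128 and 102 in WT DMXAA. Its difference of 0.73 had an adjusted p of 0.526 in WT (0.00133 with the pairing term) and that of 0.30 in CRE an adjusted p of 0.826 (0.0174 with the pairing term).

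Of 9 glycosidases, Gla, the alpha-galactosidase deficient in Fabry disease, rose in WT from 39.1, 31.5 and 28.9 to 66.7, 71.1 and 57.6 FPKM (log2 change 0.95 ± 0.27, adjusted p = 0.0200, edgeR). Manba, the beta-mannosidase, fell in both labels. It was at 9.54, 9.29 and 8.57 FPKM in WT control and at 4.55, 5.88 and 5.67 in WT DMXAA, and every DMXAA library lay below every control library. The log2 change was -0.79 ± 0.14 in WT (adjusted p = 0.00118, edgeR) and -0.63 ± 0.14 in CRE (adjusted p = 0.00558). Of 7 lipid and sterol members only Npc2, which hands cholesterol to Npc1 in the lysosome, rose in WT, from 201, 138 and 136 to 483, 387 and 358 FPKM (log2 change 1.35 ± 0.37, adjusted p = 0.0164, edgeR). None of the 7 passed in CRE.

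The 3 MiT/TFE factors did not move alike in BMDCs. Tfeb fell from 6.62, 6.32 and 6.30 to 2.87, 3.90 and 3.88 FPKM in WT and from 6.70, 5.24 and 6.28 to 2.92, 3.63 and 4.38 in CRE. The groups did not overlap, and the log2 change was -0.87 ± 0.19 in WT (adjusted p = 0.00425, edgeR) and -0.76 in CRE (adjusted p = 0.0113). Mitf rose from 6.93, 6.98 and 7.22 to 11.1, 12.6 and 10.8 FPKM in WT, a log2 change of 0.68 ± 0.15 (adjusted p = 0.00476), and by 0.58 in CRE (adjusted p = 0.0150). Tfe3 was lower in each WT DMXAA library (8.54, 8.02 and 8.05 FPKM) than in each WT control library (9.83, 10.1 and 10.8), with a difference of -0.34 (adjusted p = 0.195, with the pairing term 0.0344), and differed by -0.20 in CRE (adjusted p = 0.496).

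The 11 members called in CRE were among the 14 called in WT, with the same direction, which is 11 of 11 and 11 of 14. The overlap over all genes called was not counted, so this has no background to be set against. Both labels shared one fit, and WT 3 and CRE 1, and WT 2 and CRE 3, were close to each other, as given below. Leaving out a library in turn, the WT count ran from 9 to 14, with 9 without WT control 2 and 9 without WT control 3. The CRE count ran from 4 to 17: it was 4 without CRE DMXAA 3 or CRE control 1, 6 without CRE control 3, 7 without CRE DMXAA 1 and 17 without CRE control 2. Over all genes, these fits called 2957 to 3367 in WT and 2170 to 3511 in CRE. Without both BMDC CRE libraries numbered 2, which stood apart in their markers, 17 members were called in CRE, where 31.4% of genes were. Fitted on the 6 CRE libraries alone, 3 were, where 15.3% of genes were. Ctsb, Manba, Scarb2, Cln3, Atp6v0b, Atp6v1d, Tfeb and Mitf passed in WT whichever library was left out, and Manba, Scarb2, Atp6v1d and Tfeb in CRE.

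Between the labels, no member was called in BMDCs. In edgeR, 0 of 46 members and 0% of 12126 genes were called between CRE and WT control, 0% between CRE and WT under DMXAA, and 0% for the interaction of label and DMXAA. DESeq2 called 0, 0 and 1 gene. At an unadjusted p under 0.05, the counts were 99, 108 and 60 genes, with 0 members in each. All 46 members overlapped between CRE and WT under DMXAA, and 44 of 46 overlapped in control, while 2.61% and 3.97% of genes tested did not overlap in these comparisons. Under DMXAA the differences were 0.09 ± 0.19 for Ctsd, -0.04 ± 0.15 for Lamp1, 0.04 ± 0.19 for Tfeb, -0.06 ± 0.19 for Tfe3 and -0.07 ± 0.15 for Mitf on the log2 scale (SE). Gpnmb differed by 0.31 ± 0.37, Atp6v0d1 by 0.02 ± 0.16, Atp6v0d2 by 0.04 ± 0.23, Ctsl by 0.27 ± 0.75 and Ctsk by 1.54 ± 0.88, all at an adjusted p of 1 by edgeR. Some BMDC libraries were closer across labels than within them: WT 3 and CRE 1, and WT 2 and CRE 3, in both treatments, differed by 3.3 to 4.8 in a chi-square per gene, where sampling noise gives 1, against 14.2 to 158.2 in the other 26 pairs of a treatment.

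**Figure D3:**
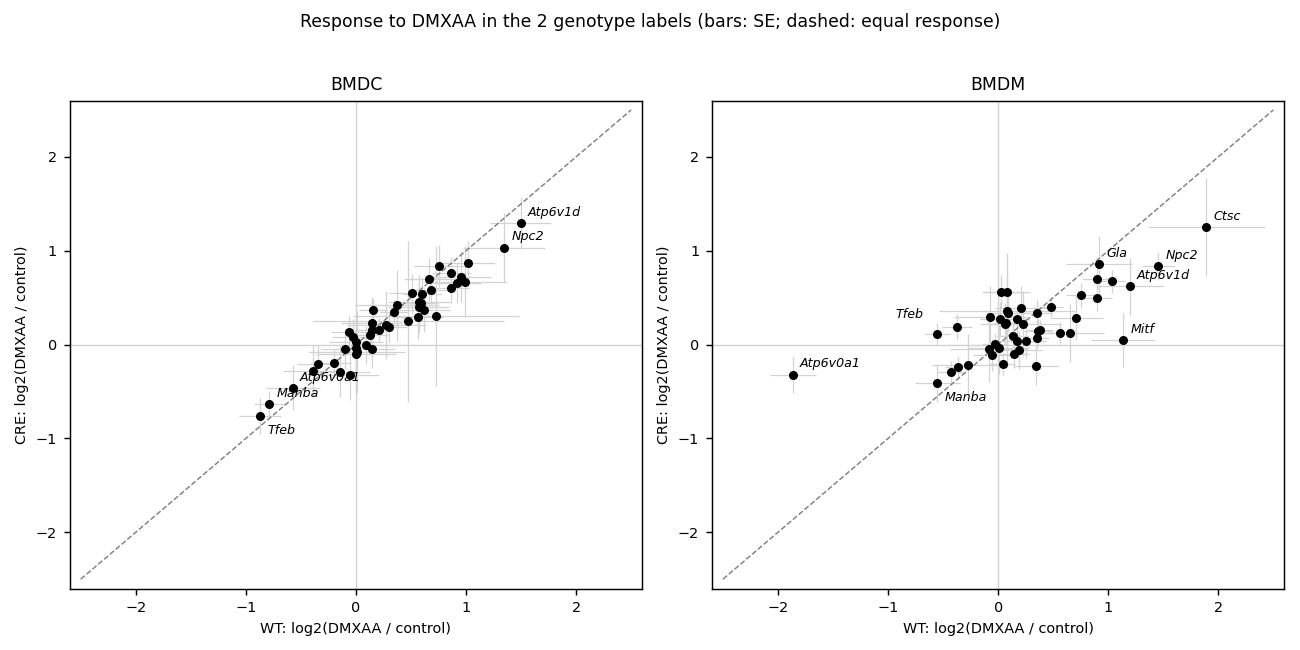
Log2 change under DMXAA in WT (x axis) against CRE (y axis) for the 46 members, in BMDCs and BMDMs, with SE as bars and the dashed line marking equal change. BMDC points lie along the line, and in BMDMs Atp6v0a1, at -1.87 in WT and -0.33 in CRE, lies far from it.

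In BMDMs labelled WT, 13 of the 46 members rose under DMXAA (28.3%) and 4 fell (8.7%), where 18.4% of 11569 genes tested rose and 20.7% fell (edgeR, libraries numbered 1 and 2). In BMDMs labelled CRE, 3 rose (6.52%) and none fell, where 7.28% of genes rose and 2.72% fell. In this fit the members' share of rises was above the background in WT and near it in CRE. Median changes were 0.17 and 0.17, beside -0.08 and -0.01 over all genes. Scaled by library totals alone, the median of all genes shifted by -0.59 in WT and by -0.24 in CRE, and the members then counted 4 higher and 14 lower in WT and 3 higher and 1 lower in CRE. That scaling called 6833 of the 11569 genes in WT and 1548 in CRE, in either direction. Groups of 2 give little hold on the spread. Fitted on the compared groups only, 4 members were called in WT (14.6% of genes) and 33 in CRE (55.2% of genes), whose libraries varied by 5.19% between replicates (the biological coefficient of variation) against 35.1% in WT. CRE 1 and CRE 2 were close in both treatments, at 3.2 to 4.9 in a chi-square per gene where sampling noise gives 1, against 36.4 to 236.7 in the other 10 pairs of BMDM libraries of a treatment. Without both WT libraries numbered 2, which carried the fibroblast transcripts, 35 members were called in WT, where 63% of genes were, with the spread taken from the CRE libraries. With all 3 BMDM libraries of a group, 0 members and 0% of 12980 genes were called in either label.

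The largest fall of any member was that of Atp6v0a1 (chr11:101009452-101063719, plus strand), which encodes an a subunit of V0, the part of the pump that holds the proton path and directs it to a membrane. It was at 78.0 and 49.5 FPKM in WT control and at 19.96 and 17.7 in WT DMXAA, a log2 change of -1.87 ± 0.21 (SE, adjusted p = 0.000833, edgeR, n = 2 against 2). In CRE it was at 97.3 and 96.3 FPKM in control and at 80.6 and 77.0 in DMXAA, a difference of -0.33. The DMXAA libraries were below the control libraries in both labels, and the WT DMXAA libraries were below all the other 6. The difference between the labels was itself significant, with an interaction of 1.55 ± 0.29 on the log2 scale (adjusted p = 0.0412, edgeR). It was the only member called for that interaction, where 3.66% of 11569 genes were called, while by library totals alone the median of all genes shifted by 0.32 and Npc1 was called too (0.95, adjusted p = 0.0428, edgeR). That scaling called 562 of the 11569 genes. Atp6v0a1 was at 35.5, 63.5 and 62.5 FPKM in BMDC WT control and at 33.8, 34.8 and 42.0 in BMDC WT DMXAA.

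Of the other genes of the a subunit, in the list of further V-ATPase subunits, 2 moved the other way in BMDM WT. Tcirg1, the a3 form found in osteoclast and lysosome membranes, was at 145.7 and 193.2 FPKM in WT control and at 511.8 and 433.9 in WT DMXAA, and rose by 1.37 ± 0.17 (SE, adjusted p = 0.00129, edgeR). In CRE it was at 179.3 and 179.1 in control and at 432.6 and 424.4 in DMXAA, and rose by 1.24 ± 0.17 (adjusted p = 0.00659). Atp6v0a2, the a2 form, was at 7.03 and 4.96 FPKM in WT control and at 19.7 and 11.4 in WT DMXAA, and rose by 1.26 (adjusted p = 0.0104). Of the 8 further subunits tested, these 2 rose and none fell in BMDM WT. In BMDCs Tcirg1 was the only further subunit called, with rises of 0.98 in WT (adjusted p = 0.00641) and 1.02 in CRE (adjusted p = 0.00673).

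Of the V1 members, 3 rose in BMDM WT and none fell. Atp6v1d was at 22.8 and 46.2 FPKM in control and at 84.5 and 86.9 in DMXAA (log2 change 1.197 ± 0.31, adjusted p = 0.0220, edgeR), and in CRE at 28.8 and 30.4 and then at 43.8 and 48.7 without passing the test. Atp6v1b2, part of the nucleotide-binding head of the pump, was at 129 and 126 and then at 189 and 196 FPKM (0.48, adjusted p = 0.0107), and Atp6v1a, the catalytic subunit, at 125 and 125 and then at 185 and 166 FPKM (0.38, adjusted p = 0.0294). Scaled by library totals alone, none of the 3 passed the test, and Atp6v1b2 and Atp6v1a were at -0.02 and -0.13, so their direction held only relative to other genes. Atp6v0d1 and Atp6v0d2 differed by 0.06 ± 0.22 and -0.08 ± 0.35 in WT (SE), and by 0.22 and -0.05 in CRE (adjusted p = 0.580 and 0.951, edgeR).

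**Figure D4:**
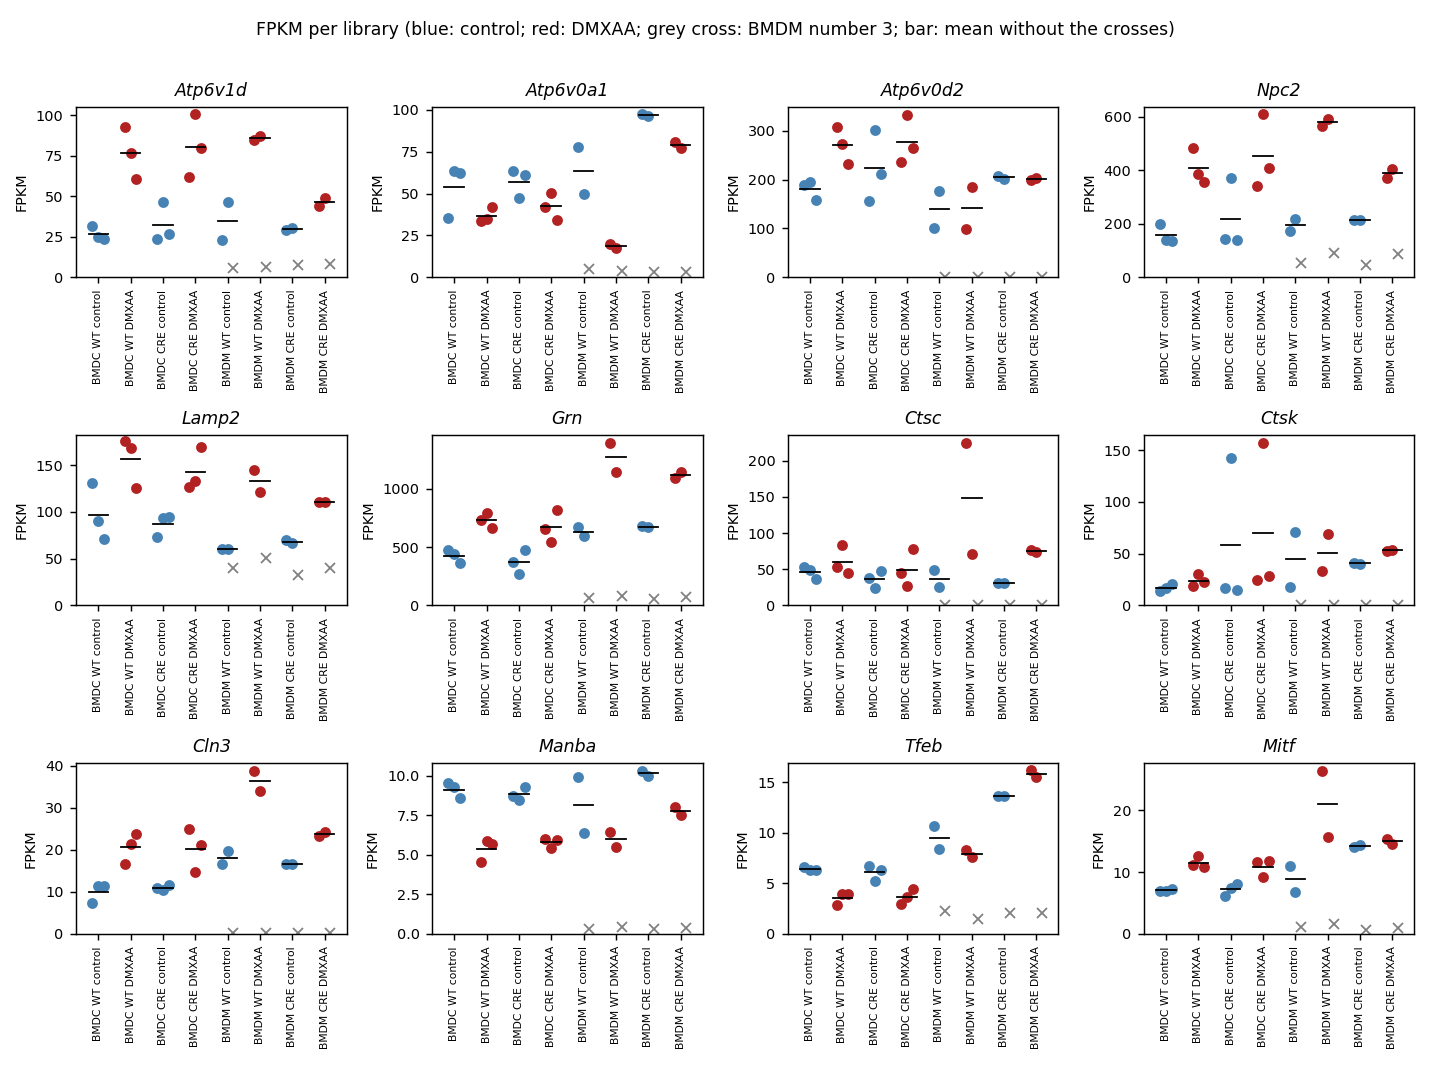
FPKM in each library for 12 members (panels), with control in blue, DMXAA in red, BMDM libraries numbered 3 as grey crosses and a bar at the mean of the other libraries of the group. Atp6v1d and Npc2 are higher in every DMXAA library than in the control libraries of the same label in BMDC WT and BMDM WT, and Atp6v0a1 is low in both BMDM WT DMXAA libraries.

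The membrane, channel and progranulin genes again rose together in BMDM WT, with 5 of 7 called, none lower and a median of 0.75. In CRE 2 of 7 were called, and all 7 were positive in both labels, though by library totals alone 5 were positive in WT and 4 in CRE. Lamp2 was at 60.2 and 59.8 FPKM in WT control and at 145 and 121 in WT DMXAA, and rose by 1.03 ± 0.12 (SE, adjusted p = 0.000997, edgeR). CRE libraries were at 69.6 and 66.9 and then at 111 and 111, a rise of 0.67 (adjusted p = 0.0185). Grn was at 670 and 597 FPKM in WT control and at 1398 and 1145 in WT DMXAA, and rose by 0.89 ± 0.13 (adjusted p = 0.00255). CRE went from 683 and 671 to 1096 and 1142, a rise of 0.70 (adjusted p = 0.0215). Cln3 rose in WT from 16.5 and 19.6 to 38.7 and 34.1 FPKM (0.90, adjusted p = 0.00273), Scarb2 from 27.1 and 22.1 to 47.1 and 42.0 (0.75, adjusted p = 0.00511), and Lamp1 from 551 and 618 to 916 and 944 (0.56, adjusted p = 0.00985). Lamp1 differed by 0.12 in CRE (adjusted p = 0.537, edgeR). Gpnmb, at 1846 to 3574 FPKM in all 8 libraries, differed by 0.36 in WT (adjusted p = 0.0750) and by 0.14 in CRE (adjusted p = 0.538).

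Of the enzymes and sterol genes, Npc2 (chr12:84754562-84773152, minus strand) was at 173.5 and 217.9 FPKM in WT control and at 565.9 and 592.9 in WT DMXAA. It rose by 1.45 ± 0.15 (SE, adjusted p = 0.000605, edgeR), the smallest p of any member in BMDMs. In CRE it was at 214 and 214 and then at 372 and 405 FPKM, and rose by 0.84 ± 0.15 (adjusted p = 0.0178). Npc1, the membrane protein that takes over its cholesterol, went the other way in WT, from 22.7 and 20.2 to 15.6 and 15.9 FPKM (-0.56 ± 0.12, adjusted p = 0.0102). Ctsc, cathepsin C, which activates granule proteases, had the largest rise, from 49.2 and 24.7 to 225 and 71.2 FPKM in WT (1.89 ± 0.53, adjusted p = 0.0299), with its 2 DMXAA libraries far from each other. In CRE, Ctsc was at 31.0 and 31.5 and then at 76.6 and 74.2 FPKM without passing the test. Gla rose by 0.92 in WT (adjusted p = 0.0493) and Ctsb by 0.36 (adjusted p = 0.0365), while Ctsb by library totals alone was at -0.15. Gusb, the beta-glucuronidase, fell from 168 and 178 to 130 and 148 FPKM (-0.43, adjusted p = 0.0295), and Ctsd from 3329 and 3545 to 2754 and 3000 FPKM (-0.37, adjusted p = 0.0469). In CRE, Ctsd differed by -0.24 (adjusted p = 0.239). Ctsl differed by 0.00 ± 0.28 in WT and by -0.04 ± 0.28 in CRE, and Ctsk differed by 0.08 ± 0.62 and 0.36 ± 0.62 (SE), its WT libraries numbered 2 at 71.1 and 68.6 FPKM against 17.8 and 33.0 in those numbered 1.

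Mitf was the MiT/TFE factor that rose in BMDM WT, from 11 and 6.75 to 26.4 and 15.7 FPKM (1.14 ± 0.29, adjusted p = 0.0214, edgeR). In CRE it was at 14.1 and 14.5 and then at 15.4 and 14.6 FPKM (0.05, adjusted p = 0.941), and the interaction of -1.09 ± 0.41 had an adjusted p of 0.198. Tfeb was at 10.7 and 8.35 FPKM in WT control and at 8.25 and 7.59 in WT DMXAA (-0.37, adjusted p = 0.0737, edgeR), and at 13.6 and 13.7 and then at 16.2 and 15.5 in CRE (0.19, adjusted p = 0.413). Tfe3 differed by 0.01 in WT and by 0.28 in CRE (adjusted p = 0.370).

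Of the 14 members called in BMDC WT and the 17 called in BMDM WT, 10 were the same, all in the same direction: Ctsb, Gla, Npc2, Lamp1, Lamp2, Scarb2, Cln3, Grn, Atp6v1d and Mitf. This is 10 of 14 and 10 of 17, and the overlap over all genes called was not counted. All 3 members called in BMDM CRE, Npc2, Lamp2 and Grn, were among the 17. Leaving out a BMDM library leaves 1 library in its group, so counts of calls are not given for these fits. The median log2 change of the members ran from 0.17 to 0.41 in BMDM WT (main value 0.17). In BMDM CRE it ran from 0.16 to 0.20 (main value 0.17). The calls of Npc2, Lamp2 and Grn in BMDM CRE were lost each time, where calls over all genes fell as well.

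Between the labels in BMDMs, no member was called in control, where 0.0432% of 11569 genes were (5 genes by edgeR, 126 by DESeq2, which called 4 members). At an unadjusted p under 0.05 there were 793 genes and 9 members, and 24 members lay higher in both CRE control libraries than in both WT control libraries and none lower, where 21.8% of genes lay higher and 17.8% lower. Gpnmb, at 3172 and 3167 against 2241 and 1846 FPKM, differed by 0.60 (adjusted p = 0.437, edgeR), Ctsd by 0.41 (adjusted p = 0.615), Tfeb by 0.49 (adjusted p = 0.581) and Mitf by 0.65 (adjusted p = 0.725). The differences of Tfe3 (0.22), Lamp1 (0.18), Atp6v0d1 (-0.14), Atp6v0d2 (0.51), Ctsl (0.33) and Ctsk (-0.17) also did not pass.

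Under DMXAA, 5 members were higher in CRE than in WT BMDMs (10.9%) and 1 lower (2.17%), where 9.26% of genes were higher and 10% lower. By library totals alone the median of all genes shifted by 0.24, and 12 members were higher and none lower, where 2928 of 11569 genes were called in either direction. Sums of cell type markers also differed between these libraries: the 11 macrophage markers summed to 5720 and 6014 FPKM in CRE DMXAA against 10159 and 11120 in WT DMXAA, and the 10 dendritic cell markers to 183.2 and 184.4 against 97.7 and 121.3. In control the macrophage markers summed to 7710 and 7838 in CRE and to 11928 and 13273 in WT. Much of each macrophage sum was Lyz2, at 2667 and 2837 FPKM in CRE DMXAA and 6185 and 7964 in WT DMXAA. Lyz2 was at 5101 and 5158 in CRE control and 9222 and 10806 in WT control. Csf1r was higher in CRE DMXAA, at 414 and 400 against 375 and 325 in WT. Of the dendritic cell markers under DMXAA, Itgax was higher in CRE, at 108 and 99.9 against 29.8 and 46.1. H2-Ab1 was lower in CRE, at 11.4 and 12.6 against 13.4 and 13.9. The part of these differences in the results was not tested. Atp6v0a1 differed most, by 2.11 ± 0.21 (SE, adjusted p = 0.00194, edgeR). Tfeb was at 16.2 and 15.5 FPKM in CRE and at 8.25 and 7.59 in WT, 1.05 ± 0.14 higher in CRE (adjusted p = 0.00468). Lipa, the acid lipase that frees cholesterol and fatty acids from lipoproteins, was at 831 and 774 against 485 and 404 FPKM (0.90, adjusted p = 0.0263). Npc1 was at 23.96 and 21.2 against 15.6 and 15.9 FPKM (0.57, adjusted p = 0.0194), and Ctsd at 3922 and 4112 against 2754 and 3000 FPKM (0.53, adjusted p = 0.0249). Cln3 was lower in CRE, at 23.1 and 24.3 against 38.7 and 34.1 FPKM (-0.57, adjusted p = 0.0299). Gpnmb (0.38), Tfe3 (0.48), Mitf (-0.44), Lamp1 (-0.25), Atp6v0d1 (0.01), Atp6v0d2 (0.55), Ctsk (0.11) and Ctsl (0.29) did not pass the test. Without either CRE DMXAA library, which leaves 1 library in that group, only Atp6v0a1 kept its call, and calls over all genes fell as well. The interaction call of Atp6v0a1 was lost without either CRE control, either CRE DMXAA library or WT DMXAA 1. Calls over all genes also fell in those fits.

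Between the cell types, nearly all called members were lower in BMDCs than in BMDMs. In WT control, 19 members were lower in BMDCs (41.3%) and 1 higher (2.17%), where 15.4% of 13368 genes tested were lower and 13.1% higher. In WT DMXAA, 19 were lower (41.3%) and 2 higher (4.35%), where 15.3% of genes were lower and 15.3% higher, and where scaling by library totals alone shifted the median of all genes by 0.21 and left 13 lower and 3 higher. That scaling called 4197 of the 13368 genes in either direction. The cell types were grown in different media and the labels do not tie their libraries to each other, so cell type and culture cannot be told apart. In control, 5 of 9 proteases, 4 of 9 glycosidases, 5 of 7 membrane, channel and progranulin genes, 1 of 5 V0 and 2 of 6 V1 members were lower. Ctsl was at 177, 86.0 and 70.5 FPKM in BMDC WT control and at 670 and 566 in BMDM WT control, a log2 difference of -2.54 ± 0.74 (SE, adjusted p = 0.0167, edgeR). Gpnmb, at 523 to 597 against 1846 and 2241 FPKM, differed by -1.91 (adjusted p = 0.000796), Ctsb, at 544 to 686 against 2039 and 2162, by -1.86 (adjusted p = 7.1e-06) and Gla, at 28.9 to 39.1 against 61.6 and 119, by -1.50 (adjusted p = 0.00148). Psap was the member higher in BMDCs, at 4281 to 4827 against 2764 and 3320 FPKM (0.53, adjusted p = 0.0348). Ctsd (-0.91, adjusted p = 0.00199), Lamp1 (-0.85, adjusted p = 0.000566) and Tfeb (-0.63, adjusted p = 0.0178) were also lower in BMDCs. Ctsk (-1.44 ± 0.88), Tfe3 (-0.41), Mitf (-0.39), Atp6v0d1 (-0.01) and Atp6v0d2 (0.32) did not pass the test. Without BMDC WT control 2 the count of 20 fell to 13, where the count over all genes fell from 3812 to 3008.

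Under DMXAA all 3 MiT/TFE factors were lower in BMDCs: Tfeb by -1.10 (adjusted p = 0.000351, edgeR), Mitf by -0.82 (adjusted p = 0.00963) and Tfe3 by -0.74 (adjusted p = 0.0113). Of the members called, the largest differences were those of Gla (-1.45), Ctsb (-1.27), Gpnmb (-1.26) and Ctsa (-1.16), the protective protein cathepsin A. Of the V0 sector, 2 of 5 members were higher in BMDCs and none was lower. Atp6v0a1 was at 33.8, 34.8 and 42.0 FPKM in BMDC WT DMXAA and at 19.96 and 17.7 in BMDM WT DMXAA (1.02 ± 0.26, adjusted p = 0.00767). Atp6v0d2 was at 309, 274 and 232 against 99.2 and 184 FPKM (0.99 ± 0.30, adjusted p = 0.0221). Ctsd (-0.55, adjusted p = 0.0393) and Lamp1 (-0.79, adjusted p = 0.000991) were lower, and Ctsl (-1.78), Ctsk (-1.03) and Atp6v0d1 (0.25) did not pass. The change under DMXAA differed between the cell types for 0 members by edgeR, where 2.61% of genes passed. At an unadjusted p under 0.05 there were 1817 genes and 3 members, and DESeq2 called 714 genes and 1 member. Without a BMDC WT DMXAA library, 17 to 20 members were called under DMXAA, where 3440 to 3705 genes were. Without BMDM WT DMXAA 1, which leaves 1 library in that group, fewer members and fewer genes were called than with all libraries used.

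**Figure D5:**
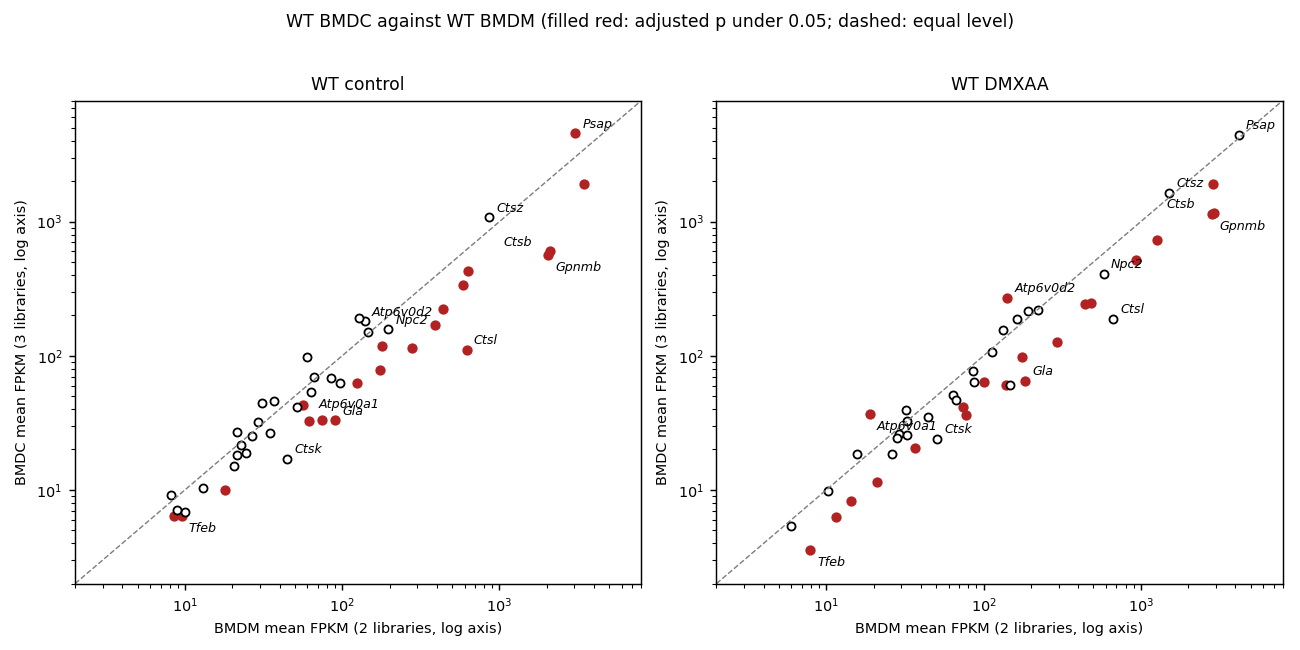
Mean FPKM of the 46 members in WT BMDMs (x axis, 2 libraries) against WT BMDCs (y axis, 3 libraries) in control and under DMXAA, on log axes; filled red points passed an adjusted p under 0.05 in edgeR and the dashed line marks equal level. Most filled points lie below the line, Psap above it in control, and Atp6v0a1 and Atp6v0d2 above it under DMXAA.

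Further lysosomal genes, from lists of what the 46 leave out, give the wider setting. Of 27 other hydrolases tested, 3 rose and 4 fell in BMDC WT, 2 rose and 4 fell in BMDC CRE, 6 rose and 4 fell in BMDM WT and 2 rose in BMDM CRE. Of all genes, 17% rose and 15.2% fell in BMDC WT, 14% and 11.4% in BMDC CRE, 18.4% and 20.7% in BMDM WT and 7.28% and 2.72% in BMDM CRE, so that the share of these hydrolases that rose was below the background in BMDC WT (11.1%) and BMDC CRE (7.41%) and above it in BMDM WT (22.2%). Sgsh, a sulfatase of heparan sulfate breakdown, fell by 2.09 in BMDC WT on the log2 scale (from 1.25 to 1.67 down to 0.193 to 0.490 FPKM) and by 1.73 in BMDM WT (from 11.97 and 7.41 to 3.61 and 2.71 FPKM). Scpep1 rose by 0.89 in BMDC WT. Naaa, an acid amidase, changed by -1.34 in BMDC WT (adjusted p = 0.00583) and by 1.23 in BMDM WT (adjusted p = 0.00780), and Hyal2 fell by 1.21 in BMDM WT. In BMDM CRE, Hyal1 rose by 1.42.

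Of 16 other membrane genes, 4 rose and 2 fell in each BMDC label, 4 rose and 3 fell in BMDM WT and 1 rose in BMDM CRE, with 25% rising in each of the first 3 comparisons. Clcn7, the chloride-proton exchanger of lysosomes, was at 39.4 and 51.2 FPKM in BMDM WT control and at 243.4 and 190.3 in BMDM WT DMXAA (2.14 ± 0.18, adjusted p = 0.000274, edgeR), and rose by 1.12 in BMDM CRE (adjusted p = 0.0124). Laptm4a rose by 1.21 in BMDM WT. In BMDC WT, Laptm4b rose by 1.69 and Tmem192 by 1.40, while Tpcn1, a cation channel of endosomes and lysosomes, fell by 1.95 and Ctns, the cystine exporter, fell by 0.65. Tpcn1 and Ctns also fell in BMDM WT, by 1.97 and 0.82.

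Of 7 sorting genes, 2 rose and 2 fell in BMDC WT (M6pr 0.84, Gnptab 0.56, Sort1 -0.87, Nagpa -0.37), and 3 rose and 1 fell in BMDM WT (Gnptab 0.88, M6pr 0.80, Igf2r -1.14). Of 15 genes of the mTORC1 and Rag platform, 2 rose in BMDC WT (Rragc 1.11, Fnip2 0.79), and 4 rose and 3 fell in BMDM WT (Rragc 1.16, Fnip2 0.95, Rragd -1.01, Lamtor4 -0.99). Of 16 autophagy genes, 2 rose and 1 fell in BMDC WT (Optn 2.01, Sqstm1 1.38, Atg7 -1.01), and 4 rose and 2 fell in BMDM WT (Optn 1.25, Uvrag 1.23, Wipi1 -0.77, Atg7 -0.76). In BMDC CRE, 2 sorting genes rose (M6pr 0.71, Gnptab 0.58) and none fell, 1 gene of the mTORC1 and Rag platform rose (Rragc 0.97), and 2 autophagy genes rose and 1 fell (Optn 1.54, Sqstm1 1.04, Atg7 -0.67). In BMDM CRE the calls in these 3 lists were Gnptab (1.04), Fnip2 (1.18), Lamtor4 (-0.79) and Uvrag (0.93). In BMDC WT 28.6%, 13.3% and 12.5% of the 3 lists rose, beside 17% of genes, and 28.6%, 0% and 6.25% fell, beside 15.2%. In BMDM WT 42.9%, 26.7% and 25% rose, beside 18.4%, and 14.3%, 20% and 12.5% fell, beside 20.7%. The shares that rose were 28.6%, 6.67% and 12.5% in BMDC CRE, beside 14%, and 14.3%, 6.67% and 6.25% in BMDM CRE, beside 7.28%.

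In the 4 BMDM libraries numbered 3, the members took 0.624% to 0.840% of counted reads. Of the 46, 44 were lower in all 4 than in all 8 other BMDM libraries, and Gaa, the acid alpha-glucosidase, and Smpd1, the acid sphingomyelinase, overlapped, where 28.7% of genes tested in BMDMs were lower in all 4. Ctsc, Ctsh, Ctsk, Manba, Cln3, Gpnmb and Atp6v0d2 were at 1 FPKM or less in all 4. Lamp1, at 195 to 236 FPKM, and Psap, at 281 to 324 FPKM, had the highest levels. Gpnmb was at 0.0435 to 0.259 FPKM there, against 1846 to 3574 in the other BMDM libraries, beside the fibroblast and macrophage marker levels given above. No test was run on these 4 libraries alone, of which there is 1 a group.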

How the data were processed

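PolyA RNA of 24 libraries in 8 groups was sequenced. Per the labels and the submitters' processing notes, the authors used CASAVA 1.8, fastp, HISAT2 2.0.5, featureCounts 1.5.0-p3 and DESeq2 1.20.0 with GRCm38 (mm10), and deposited raw counts per gene and FPKM per gene in 1 table. The FPKM values were scaled by an effective library size of the authors rather than by the library total. The table also holds 60 columns of the authors' own comparisons (fold changes and p-values), which were not used here.

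Groups came from the labels. Counts were tested with edgeR 4.0.16 (quasi-likelihood, TMM, two-sided, Benjamini-Hochberg adjusted p under 0.05) in R 4.3.3, over genes at 1 FPKM or more in at least 3 libraries (BMDC) or 2 (BMDM, cell types). The fits used all 12 BMDC libraries, the 8 BMDM libraries numbered 1 and 2, or these 20 together; the test scripts were tested on simulated data. The unit of all changes is log2, with SE from the F statistic. The SE gives the precision over libraries; libraries held 15657347 to 18912887 counted reads.

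Deviations of control and DMXAA libraries with the same number correlated at 0.327 to 0.669 within each BMDC label (3 pairs each, all over 0.1), so the numbers were taken to pair these libraries; across BMDC labels they correlated at -0.509 to 0.053 and were not taken as pairs.

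The members and gene lists were chosen with earlier results of these data known. Every member was counted. In each comparison the text names the 4 members with the largest called change in each direction, and Tfeb, Tfe3, Mitf, Gpnmb, Atp6v0d2, Atp6v0d1, Lamp1, Ctsd, Ctsk and Ctsl; from each other list it names the 2 genes called with the largest change in each direction. Other named genes were singled out after their values were seen. Of the 46 members, 45 have identical coordinates in GENCODE M21. Alternatives were median-of-ratios scaling, no filter, DESeq2 1.42.0, DESeq2 with the thresholds of the study, limma 3.58.1 on log2(FPKM + 1), replicate blocks, the compared groups only, all 3 BMDM libraries and leaving out each library. Scaling by library totals, an added threshold of 1 on the log2 change, and leaving out the BMDC CRE or BMDM WT libraries numbered 2 were chosen after seeing the data. 1 gene is not reported here.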

Additional observations from a re-analysis of the deposited data

Results flagged for a closer look

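Atp6v0a1, an a subunit of the V0 sector, was flagged because its change under DMXAA differed between the labels in BMDMs, with an interaction of 1.55 on the log2 scale (edgeR adjusted p = 0.0412). The fall was from 78.0 and 49.5 to 19.96 and 17.7 FPKM in WT and from 97.3 and 96.3 to 80.6 and 77.0 FPKM in CRE. The call was lost without either CRE control library, either CRE DMXAA library or WT DMXAA 1. These fits leave 1 library in a group, and calls over all genes fell in them as well. The fibroblast marker sums of both WT libraries numbered 2 (65.3 and 76.9 FPKM) stand beside the call, and their part in it was not tested.

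Npc2 and Lipa were flagged in the 4 BMDM libraries numbered 3, which the main tests left out. Of the 46 members, 13 were higher and 5 lower in both DMXAA libraries than in both control libraries. The share of all genes that did so was not counted. Npc2 was at 51.4 and 45.2 FPKM in control and at 91.8 and 88.3 under DMXAA, so that the lower DMXAA library was 1.72 times the higher control library. Lipa was at 26.2 and 20.2 FPKM in control and at 44.3 and 37.2 under DMXAA, a ratio of 1.42. These libraries carried 1339 to 2055 FPKM of fibroblast markers, and there is 1 library a group.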

How the results depend on the processing

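With all 3 BMDM libraries, 1 of 68 calls of a member was kept. Direction and side of the threshold were kept by 92 of 93 calls with DESeq2 and 90 with median-of-ratios scaling. They were kept by 88 with limma, 75 with no filter and 57 of 92 with the compared groups only. With library totals alone 61 of 93 were kept, 29 lost their call and 3 reversed. These 3, all in BMDM WT, were Ctsb (to -0.15), Atp6v1a (to -0.13) and Atp6v1b2 (to -0.023). Leaving out BMDM libraries leaves 1 library in a group, so calls kept are not counted there. Calls lost in BMDCs when a library was left out are given above. The cause was not tested where a count moved.

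Counts of members called, main value in parentheses, were as follows where they moved by more than 1.5 times. The number of all genes called in the same setting is given beside each, or here for 3 comparisons. For BMDM WT it was 4531 (main), 0 with all 3 libraries and 1687 with compared groups only. For BMDM CRE against WT under DMXAA it was 2228 (main), 2899 with DESeq2 and 0 with all 3 libraries. It was 2928 there with library totals and 3630 with no filter. In control it was 5 (main), 126 with DESeq2 and 700 with no filter. Fits without the BMDM WT libraries numbered 2 leave 1 library in a group, so this number is left out. For the study's thresholds and the log2 threshold, it was not counted. BMDC WT (14, 3904 genes): 4 with DESeq2 at the thresholds of the study, 3 with an added log2 threshold of 1. BMDC CRE (11, 3084 genes): 17 (3720 genes) with DESeq2, 17 (3805 genes) without both CRE libraries numbered 2, 3 (1853 genes) with compared groups only, 7 (4487 genes) with library totals, 7 (3224 genes) with no filter, 2 at the study's thresholds, 1 with the log2 threshold. BMDM WT (17): 0 with all 3 libraries, 35 without both WT libraries numbered 2, 4 with compared groups only, 6 at the study's thresholds, 6 with the log2 threshold. BMDM CRE (3, 1157 genes): 8 (1894 genes) with DESeq2, 0 (0 genes) with all 3 libraries, 33 (6389 genes) with compared groups only, 9 (2120 genes) with no filter, 1 at the study's thresholds, 0 with the log2 threshold. BMDM CRE against WT under DMXAA (6): 10 with DESeq2, 0 with all 3 libraries, 34 without the WT libraries numbered 2, 12 with library totals, 11 with no filter, 1 at the study's thresholds, 2 with the log2 threshold; in control (0): 4 with DESeq2, 32 without those libraries, 2 with no filter. BMDM interaction (1, 424 genes): 4 (1172 genes) with DESeq2, 0 (0 genes) with all 3 libraries, 2 (562 genes) with library totals, 0 (560 genes) with limma, 2 (1342 genes) with no filter, 2 at the study's thresholds. WT control BMDC against BMDM (20, 3812 genes): 0 (1183 genes) with all 3 libraries, 9 at the study's thresholds, 10 with the log2 threshold. WT DMXAA BMDC against BMDM (21, 4092 genes): 1 (1336 genes), 9 and 8 under the same settings. Cell type interaction (0, 349 genes): 1 (714 genes) with DESeq2, 2 (836 genes) with no filter, 2 at the study's thresholds. Without both BMDM WT libraries numbered 2, 1 library is left in each BMDM WT group, so only effect sizes are given here. The median log2 change of the members was then 0.33 in BMDM WT (main value 0.17) and -0.18 for the BMDM interaction (-0.05). For BMDM CRE against WT it was 0.11 under DMXAA (0.09) and 0.25 in control (0.12).

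With a replicate block within genotype, the counts were 27 (BMDC WT), 23 (BMDC CRE), 24 (BMDM WT), 11 (BMDM CRE), 5 (BMDM interaction) and 0 (BMDC interaction), and all 46 calls it could be compared with were kept. Over all genes it called 5911, 5181, 6109, 2920, 1702 and 0, in the same order. A replicate block across genotypes gave 13, 12, 17, 4, 1 and 0, and 7 (BMDM CRE against WT under DMXAA), 0 in control, 19 and 20 (cell types). BMDM libraries share only a number: their same-numbered pairs correlated at 0.032 and 0.625 within a label. Mitf passed the BMDM interaction with the block (adjusted p = 0.00739, edgeR).

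Leaving out each BMDC library gave 9 to 14 (BMDC WT) and 4 to 17 (BMDC CRE). For the cell types it gave 13 to 17 in control (3008 to 3178 genes), 17 to 20 under DMXAA (3440 to 3705 genes) and 0 for their interaction. Leaving out a BMDM library leaves 1 sample in a group, assumed to vary like the others, so no counts are given for those fits. The fit on compared groups only is the same as the main fit for the genotype interactions. No alternative varied the depth, so what it limits was not tested.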
